A study of Mus musculus with 8 samples.

Results

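Macrophages and their monocyte precursors express a shared set of genes, and the levels of 41 of these genes were followed in whole PyMt mammary tumors from mice treated topically with calcipotriol or with its solvent, ethanol (EtOH). The members were taken by symbol from a list of genes that are widely used to identify macrophages and monocytes. The rule itself uses no measured value, but the list was chosen with earlier results of these data known. These genes are 41 of the 55414 gene identifiers in the deposited table. All 41 were found there, and 39 had enough counts to be tested.

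Tissue macrophages arise from embryonic precursors and from blood monocytes, which leave the circulation with the help of the chemokine receptor CCR2. Both depend on the transcription factor PU.1 (encoded by Spi1) and on signaling through the receptor for colony-stimulating factor 1. In mammary tumors macrophages clear dying cells, take up lipid and antibody-coated material, and are among the most numerous leukocytes.

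The tumors grew from the PyMt line, 1 cell line that came from a tumor in an MMTV-PyMt mouse, in which a mouse mammary tumor virus promoter drives the polyoma middle T oncogene, after injection into the inguinal mammary fat pad of wild-type female mice aged 6 to 8 weeks. Line and hosts shared the C57BL/6 background. The mice in the calcipotriol group received 20 nmol of calcipotriol, a synthetic analog of vitamin D, on the skin over the tumor, and those in the control group received the EtOH solvent alone. Dosing in both groups began 2 days after implantation, was repeated every 2 days, and was followed by tumor collection 24 hours after the last dose. RNA of 4 EtOH-treated tumors (numbered 1 to 4) and 4 calcipotriol-treated tumors (numbered 1, 5, 6 and 7) was sequenced, and all carried the same wild-type label. The labels give epithelial cells as the cell type, but by the study's methods the RNA came from whole tumor tissue. The epithelial keratin Krt8 ranged from 285 to 652 CPM (counts per 1000000 counts) over the 8 tumors. The epithelial adhesion gene Epcam ranged from 0 to 22.7 CPM. Neither gene shows how much of the RNA came from other cells.

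Total counts ranged from 19685397 to 25084715 per tumor. The calcipotriol-treated tumor 1 stood apart from the other 3 of its group for the members, so each result that rests on it is given with and without this tumor. It was picked out by the member values themselves, so leaving it out favors larger differences and smaller p-values for the members. Calls made without it are descriptive and are not separate support. The EtOH-treated tumors also fell into pairs: tumors 3 and 4 were both above tumors 1 and 2 for 21 of the 39 members tested (53.8%, against 29.3% of all genes tested) and both below them for 6 (15.4%, against 29.0%). No label or method names a batch for either pattern, and no comparison within a batch was possible. In bulk RNA, fewer cells of a type and less RNA per cell cannot be told apart, and this holds for every value given here.

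Most macrophage and monocyte genes had lower levels in the calcipotriol-treated tumors. Of the 39 members tested, 37 had a negative log2 fold change (calcipotriol over EtOH), and Gpnmb and Ly6c2 had a positive one. The median log2 fold change was -0.90 for the members and 0.02 for all 14458 genes tested, of which 47.9% had a negative value. A gene was called when its adjusted p was under 0.05 and its log2 fold change was 1 or more in size. In edgeR's quasi-likelihood test 6 members fell (Lyz2, Ms4a6c, Apoe, Ncf1, Adgre1 and Fcgr3) while 0.948% of all genes tested fell. By the same rule 1 member, Gpnmb, rose, and 1.07% of all genes tested rose. The other 32 members did not pass, although 28 members in all had an unadjusted p under 0.05 (18.4% of all genes). DESeq2 called 13 members at these thresholds (4.43% of all genes, either direction) and limma-voom called 10 (1.90%).

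Without calcipotriol-treated tumor 1, the same test called 24 members lower, against 2.70% of all genes, and 1 higher, against 1.62%. These 25 included all 7 called with the 8 tumors, and the median log2 fold change of the members was -1.34. The number of members called ranged from 2 to 25 over the 8 fits that each left out 1 tumor, and only Lyz2 and Ms4a6c were called in all 8 of those fits. Adgre1, Fcgr3 and Gpnmb kept the call only in the fit without calcipotriol-treated tumor 1, and without any other single tumor their adjusted p was 0.058 to 0.106, 0.0774 to 0.129 and 0.0896 to 0.125 (edgeR). Apoe was called without calcipotriol-treated tumor 1 and without EtOH-treated tumors 3 or 4, and had an adjusted p of 0.0644 to 0.088 in the other fits. Ncf1 was called without calcipotriol-treated tumor 1 and without EtOH-treated tumor 1, and had an adjusted p of 0.0536 to 0.0987 in the other fits. Log2 fold changes of these 5 genes kept their sign in every fit.

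The same difference was seen in the tumors one by one. The median difference of the members from the EtOH mean, on the log2 CPM scale, was -0.29, -0.07, 0.13 and 0.19 in EtOH-treated tumors 1 to 4. It was -0.09 in calcipotriol-treated tumor 1 and -1.26, -1.38 and -1.38 in calcipotriol-treated tumors 5, 6 and 7. By this median, tumor 1 of the calcipotriol group lay among the EtOH-treated tumors, and the other 3 lay below all of them. Calcipotriol-treated tumor 1 had the highest level of its group for 33 of 39 members (84.6%), which it had for 31.0% of all genes tested. Gene by gene it was within the EtOH range for 18 members (46.2%, against 59.0% of all genes), above it for 7 (17.9%, against 21.4%) and below it for 14 (35.9%, against 19.6%). Calcipotriol-treated tumors 5, 6 and 7 were below the EtOH range for 32, 35 and 36 members (25.8%, 22.4% and 22.3% of all genes). The 2 groups did not overlap, with every calcipotriol-treated tumor lower, for 13 members against 6.16% of all genes, and no member was higher without overlap against 6.32%. Without calcipotriol-treated tumor 1 these counts were 30 lower (12.0% of all genes) and 1 higher (11.0%).

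**Figure D1:**
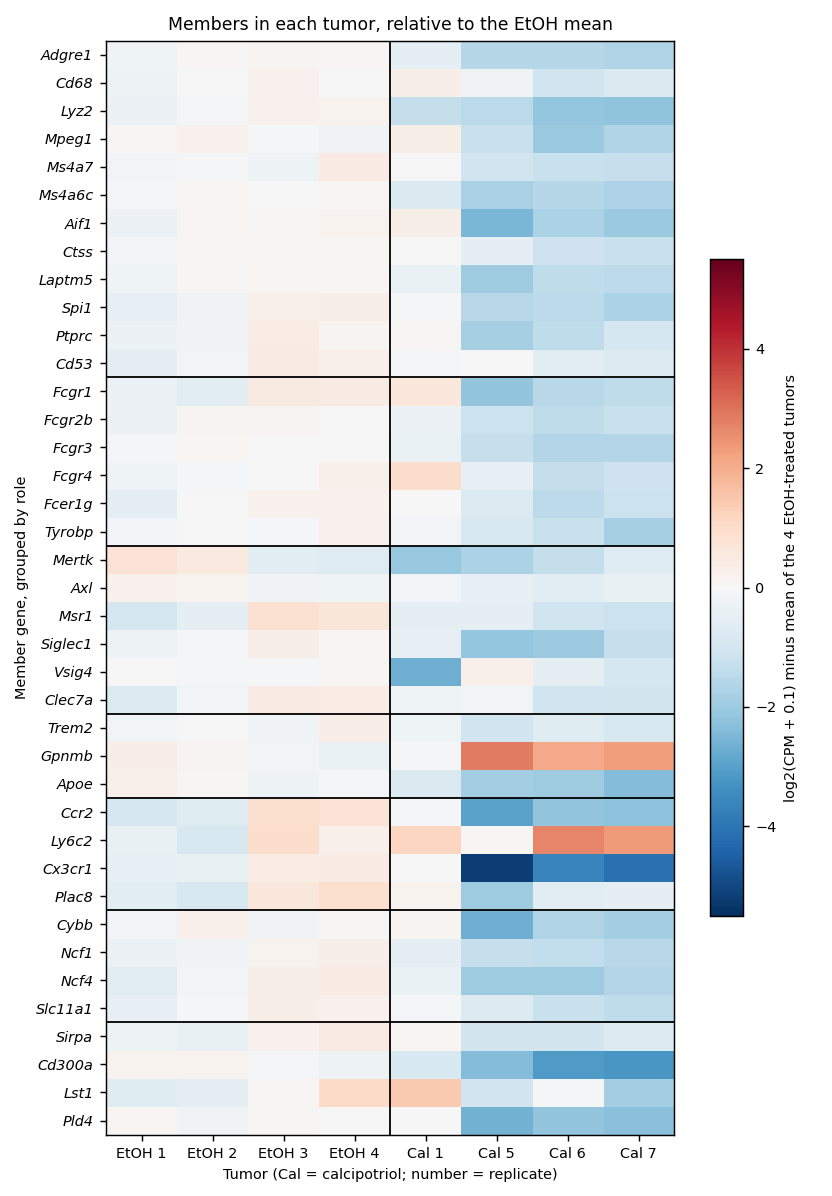
Level of the 39 tested members (rows, grouped by role, with lines between groups) in each of the 8 tumors (columns), as log2(CPM + 0.1) minus the mean of the 4 EtOH-treated tumors, with blue for lower and red for higher. Calcipotriol-treated tumors 5, 6 and 7 are blue for most members, Gpnmb and Ly6c2 are the main red exceptions, and calcipotriol-treated tumor 1 is within the EtOH range for 18 rows, below it for 14 and above it for 7.

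The levels of these genes differed widely when counts were divided by exon length, the scale on which genes can be compared with each other. In the EtOH-treated tumors Apoe had the highest level (4493 ± 938 counts per kilobase of exon, scaled to a sum of 1000000 per tumor, SD, n = 4), followed by Lyz2 (3507 ± 503) and Ctss (1404 ± 38.7). The difference between Apoe and Lyz2 was less than their summed SD, while both were above the range of Ctss in every EtOH-treated tumor. Fcer1g (484 ± 87.1), Axl (445 ± 90.7), Tyrobp (342 ± 28.4), Fcgr3 (275 ± 14.2), Laptm5, Cd68 and Fcgr2b completed the first 10. Fcer1g and Axl differed by less than their SD. At the other end, Cd300a (3.59 ± 0.69) and Ly6c2 (1.48 ± 0.87) were low, and the scavenger receptor Marco and the phosphatidylserine receptor Timd4 were near 0.

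In calcipotriol-treated tumors 5, 6 and 7 the first 3 members by mean level per exon length were again Apoe, Lyz2 and Ctss. Gpnmb moved from rank 37 to rank 16 of 41, and Cx3cr1 from 22 to 38. Ccr2 moved from 29 to 36 and Pld4 from 21 to 30.

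**Figure D2:**
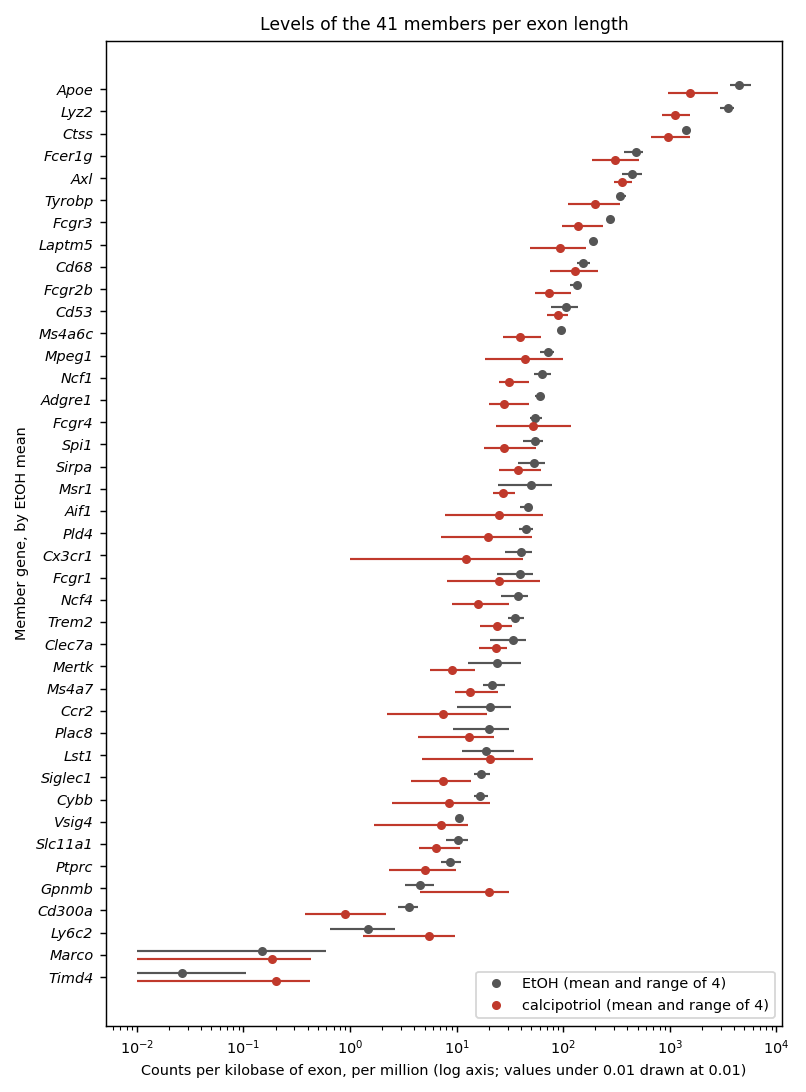
Level of each of the 41 members per exon length (counts per kilobase, scaled to a sum of 1000000 per tumor, log axis), ordered by the EtOH mean; points are means and lines are the ranges of 4 tumors, grey for EtOH and red for calcipotriol. Apoe, Lyz2 and Ctss lead in both groups, and the long red lines are those of members for which calcipotriol-treated tumor 1 lay far from the other 3.

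The first role group held 12 genes that identify macrophages or leukocytes in general, and all 12 had a negative log2 fold change. In the test 3 of them fell, Lyz2, Ms4a6c and Adgre1, and 9 passed both thresholds without calcipotriol-treated tumor 1. Values by tumor are in CPM throughout, scaled for library size by the TMM method, and are listed in the order EtOH 1, 2, 3 and 4, then calcipotriol 1, 5, 6 and 7.

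Lyz2 encodes lysozyme M, the bactericidal enzyme of macrophages and neutrophils (GRCm38, chr10:117277331-117282321, minus strand). Its levels were 1343, 1601, 1972 and 1937 CPM with EtOH and 680.2, 612, 384 and 366 CPM with calcipotriol (log2 fold change -1.75 ± 0.23 (SE), adjusted p = 0.00683). Every calcipotriol-treated tumor was below every EtOH-treated tumor, and here calcipotriol-treated tumor 1 was close to tumor 5. Within Lyz2, 15.4% of the 50-base windows of its transcripts also occur in Lyz1, so some of its counts may belong to that gene.

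Ms4a6c, a membrane-spanning 4A family gene of myeloid cells (chr19:11469366-11482192, plus strand), had 66.8, 76.1, 73.1 and 75.02 CPM with EtOH and 42.2, 21.1, 24.2 and 22.6 CPM with calcipotriol (log2 fold change -1.40 ± 0.21 (SE), adjusted p = 0.0107). The groups did not overlap, and the EtOH-treated tumors were within a narrow range. An annotated transcript on the opposite strand, BE692007, covers 53.1% of the exon length of Ms4a6c, and counts of the pair cannot be separated if strand was not used in counting, which the sources used here do not state.

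Adgre1 encodes F4/80, the surface protein by which mouse macrophages are most often recognized (chr17:57358691-57483527, plus strand). It had 61.1, 75.6, 80.2 and 76.4 CPM with EtOH and 51.9, 24.5, 24.6 and 23.1 CPM with calcipotriol. Calcipotriol-treated tumors 5, 6 and 7 were almost equal, tumor 1 was about midway between them and the EtOH-treated tumors, and the groups did not overlap. The fitted difference passed both thresholds (log2 fold change -1.24 ± 0.25 (SE), adjusted p = 0.0325), and without calcipotriol-treated tumor 1 it was -1.60 ± 0.14, adjusted p = 0.000435. In a two-sided exact permutation test of the mean log2 CPM the difference was -1.32 with p = 0.0286, the smallest value that the 70 arrangements of 4 against 4 tumors can give. Groups that do not overlap give this value whatever the size of the difference, so it adds nothing to the separation already stated. Of all genes tested, 6.16% were lower and 6.32% higher without overlap. Without calcipotriol-treated tumor 1 the difference was -1.60 with p = 0.0571, again the smallest possible, for 4 against 3 tumors (exact permutation test).

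Laptm5, a lysosomal membrane protein of blood cells, had 228, 277, 291 and 276 CPM with EtOH and 205, 69.4, 103 and 98.6 CPM with calcipotriol, with no overlap between the groups. It narrowly missed the threshold with all tumors (adjusted p = 0.058, edgeR) and passed without calcipotriol-treated tumor 1 (-1.57 ± 0.17, adjusted p = 0.00117). Ctss, which encodes the antigen-processing protease cathepsin S, had 631, 732, 727 and 735 CPM with EtOH and 698, 484, 316 and 304 CPM with calcipotriol. Its calcipotriol-treated tumor 1 was within the EtOH range, and the other 3 were below it (without tumor 1, -0.94 ± 0.19, adjusted p = 0.0166, a difference under the fold threshold).

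Spi1, the gene of PU.1, had 39.1, 45.8, 64.9 and 66.95 CPM with EtOH and 49.7, 18.6, 19.2 and 15.7 CPM with calcipotriol. Calcipotriol-treated tumor 1 was among the EtOH-treated tumors, and the gene did not pass with all tumors (-1.07 ± 0.35 (SE), adjusted p = 0.141) but passed without that tumor (-1.61 ± 0.22, adjusted p = 0.00313). Ptprc, which encodes CD45 on all leukocytes, had 45.4, 49.4, 75.5 and 62.5 CPM with EtOH and 59.8, 16.03, 21.8 and 28.9 CPM with calcipotriol, and without calcipotriol-treated tumor 1 its log2 fold change was -1.39 ± 0.24, adjusted p = 0.0101. Both genes thus showed 3 calcipotriol-treated tumors below the EtOH range and 1 inside it.

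Mpeg1, the gene of the pore-forming protein perforin-2, had 121, 136, 107 and 101 CPM with EtOH and 143, 48.8, 27.9 and 36.7 CPM with calcipotriol. Aif1, which encodes the calcium-binding macrophage protein IBA1, had 20.9, 28.1, 27.8 and 29.9 CPM with EtOH and 33.1, 4.52, 7.88 and 6.36 CPM with calcipotriol. Ms4a7, another 4A family gene, had 31.9, 33.4, 29.1 and 48.1 CPM with EtOH and 35.9, 16.2, 15.1 and 14.6 CPM with calcipotriol. For Mpeg1 and Aif1, calcipotriol-treated tumor 1 was the highest of all 8 tumors, and for all 3 genes the other calcipotriol-treated tumors were below every EtOH-treated one. None of the 3 passed with all tumors (adjusted p = 0.322, 0.334 and 0.194, edgeR), and each passed without tumor 1, with log2 fold changes of -1.62, -2.09 and -1.22. The lysosomal glycoprotein gene Cd68 and the leukocyte tetraspanin gene Cd53 overlapped between the groups with and without tumor 1 (log2 fold changes -0.35 ± 0.27 (SE) and -0.36 ± 0.24 (SE), adjusted p = 0.543 and 0.459, edgeR).

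**Figure D3:**
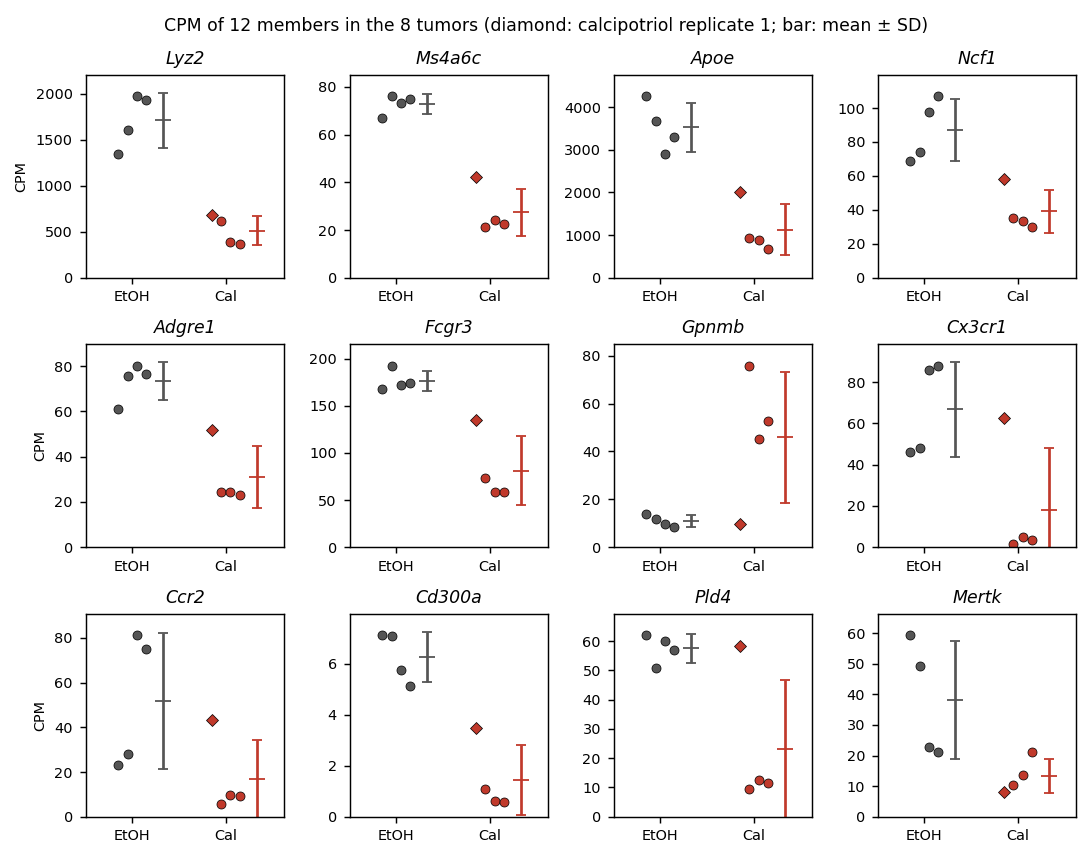
CPM of 12 members in each tumor, with grey points for EtOH, red for calcipotriol and a diamond for calcipotriol-treated tumor 1; bars are the mean ± SD of 4 tumors, cut off at 0. The diamond is the highest red point for every gene shown except Gpnmb and Mertk, and it lies within the EtOH range for Gpnmb, Cx3cr1, Ccr2 and Pld4.

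The Fc receptors bind the constant part of IgG, and their activating forms signal through the adaptor encoded by Fcer1g. All 6 genes of this group had a negative log2 fold change (median -0.84), 1 fell in the test, and 5 passed both thresholds without calcipotriol-treated tumor 1.

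Fcgr3, an activating receptor of low affinity (chr1:171051174-171064935, minus strand), had 168, 192, 172 and 174 CPM with EtOH and 135, 73.4, 58.3 and 58.4 CPM with calcipotriol (log2 fold change -1.12 ± 0.25 (SE), adjusted p = 0.0445). Fcgr2b, the inhibitory receptor of the family, had 231, 322, 315 and 291 CPM with EtOH and 229.8, 125, 109 and 122 CPM with calcipotriol. Neither gene overlapped between the groups, although for Fcgr2b calcipotriol-treated tumor 1 was barely below the lowest EtOH-treated tumor. With all tumors Fcgr2b narrowly missed both thresholds (-0.99 ± 0.23 (SE), adjusted p = 0.0536), and it passed without calcipotriol-treated tumor 1 (-1.29 ± 0.15, adjusted p = 0.00161, edgeR). The log2 ratio of the inhibitory Fcgr2b to the activating Fcgr3 was 0.46, 0.74, 0.87 and 0.74 with EtOH and 0.76, 0.77, 0.91 and 1.06 with calcipotriol, so the ranges of the 2 groups overlapped. The 2 genes share sequence, with 12.8% of the 50-base windows of Fcgr3 found in Fcgr2b, and their counts are uncertain to that extent.

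Fcgr1, the receptor of high affinity, had 28.6, 23.5, 49.8 and 48.03 CPM with EtOH and 52.7, 7.95, 12.3 and 13.5 CPM with calcipotriol. Calcipotriol-treated tumor 1 was the highest of all 8, and the other 3 were below the EtOH range (without tumor 1, -1.73 ± 0.31, adjusted p = 0.0113). Fcgr4, an activating receptor of intermediate affinity, ranged from 21.1 to 30.6 CPM with EtOH and from 10.1 to 49.7 CPM with calcipotriol, and it passed in neither fit at both thresholds.

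Fcer1g had 111, 155, 182 and 182 CPM with EtOH and 151, 90.3, 56.6 and 68.04 CPM with calcipotriol. Tyrobp, the gene of the related adaptor DAP12, had 76.5, 82.7, 80.4 and 98.4 CPM with EtOH and 76.2, 45.4, 36.00 and 23.9 CPM with calcipotriol. The groups did not overlap for Tyrobp but calcipotriol-treated tumor 1 came within 1 CPM of the lowest EtOH-treated tumor, and for Fcer1g it lay inside the EtOH range. Both missed the threshold with all tumors (adjusted p = 0.184 and 0.132, edgeR) and passed without tumor 1.

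The scavenger, lectin and apoptotic cell receptors bind modified lipoproteins, sugars and the phosphatidylserine exposed on dying cells. Of the 8 genes 6 were tested, all with a negative log2 fold change (median -0.81). None passed the thresholds with all tumors in edgeR's test, although 4 had an unadjusted p under 0.05, and 1, Siglec1, passed without calcipotriol-treated tumor 1. DESeq2 called Mertk and Siglec1 (adjusted p = 0.00235 and 0.00324), and limma-voom called Siglec1.

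Siglec1 encodes sialoadhesin, a sialic acid-binding receptor of resident macrophages. It had 36.1, 41.3, 54.5 and 47.1 CPM with EtOH and 32.3, 10.1, 10.96 and 18.5 CPM with calcipotriol, without overlap (log2 fold change -1.31 ± 0.34 (SE), adjusted p = 0.069; without tumor 1, -1.76 ± 0.25, adjusted p = 0.0036). Mertk, a receptor kinase for apoptotic cells, had 59.3, 49.4, 22.8 and 21.1 CPM with EtOH and 8.14, 10.3, 13.7 and 21.03 CPM with calcipotriol. Its lowest EtOH-treated tumor and its highest calcipotriol-treated tumor were nearly equal, and EtOH-treated tumors 1 and 2 were more than 2 times as high as tumors 3 and 4 (log2 fold change -1.52 ± 0.39 (SE), adjusted p = 0.0681). Calcipotriol-treated tumor 1 was here the lowest of its group.

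The related kinase gene Axl, which stromal and tumor cells also express, had 951, 939, 724 and 685 CPM with EtOH and 737, 599, 522 and 621 CPM with calcipotriol (log2 fold change -0.41 ± 0.16 (SE), adjusted p = 0.214). The groups overlapped because calcipotriol-treated tumor 1 was above EtOH-treated tumors 3 and 4. Msr1, the class A scavenger receptor gene, had 53.1, 71.5, 183 and 167 CPM with EtOH and 74.4, 71.6, 48.1 and 45.5 CPM with calcipotriol (log2 fold change -0.99 ± 0.37 (SE), adjusted p = 0.192). EtOH-treated tumors 3 and 4 were more than 2 times as high as EtOH-treated tumors 1 and 2, which lay among the calcipotriol-treated tumors. The complement receptor gene Vsig4 ranged from 5.59 to 6.35 CPM with EtOH and from 0.834 to 7.13 CPM with calcipotriol, with calcipotriol-treated tumor 1 as the lowest value. Clec7a, the gene of the beta-glucan receptor Dectin-1, ranged from 18.8 to 43.5 CPM with EtOH and from 14.8 to 28.2 CPM with calcipotriol.

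Marco and Timd4, both markers of resident macrophages in other organs, were not tested. The counts of Marco were 0, 0, 0 and 10 in the EtOH-treated tumors and 0, 5, 6 and 0 in the calcipotriol-treated ones. Those of Timd4 were 0, 0, 0 and 2, then 0, 0, 6 and 7. A count of 0 allows up to 3 counts by counting error alone, so at this depth no difference was detectable for either gene.

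The lipid-handling genes moved in different directions. Apoe encodes the lipid carrier apolipoprotein E, which cells other than macrophages also make (chr7:19696109-19699188, minus strand). It had 4258, 3680.0, 2899 and 3291 CPM with EtOH and 2017, 934, 889.8 and 668 CPM with calcipotriol (log2 fold change -1.65 ± 0.32 (SE), adjusted p = 0.0261). The groups did not overlap, and calcipotriol-treated tumor 1 lay between the EtOH-treated tumors and the other 3 calcipotriol-treated tumors.

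Gpnmb, a transmembrane glycoprotein gene of lysosome-rich and lipid-laden macrophages that melanocytes and some tumor cells also express (chr6:49036546-49070929, plus strand), was the only member called higher. It had 13.9, 11.7, 9.68 and 8.25 CPM with EtOH and 9.89, 75.7, 45.2 and 52.8 CPM with calcipotriol. Calcipotriol-treated tumors 5, 6 and 7 were each more than 3 times the highest EtOH-treated tumor, while calcipotriol-treated tumor 1 was inside the EtOH range, so the groups overlapped. The rise passed edgeR's test (log2 fold change 2.08 ± 0.48 (SE), adjusted p = 0.0474), and without tumor 1 it was 2.41 ± 0.23, adjusted p = 0.000549. In limma-voom the same difference with all tumors had an adjusted p of 0.166.

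Trem2, a lipid receptor that signals through DAP12, had 57.6, 64.5, 55.6 and 82.2 CPM with EtOH and 54.9, 31.2, 40.9 and 35.1 CPM with calcipotriol. Calcipotriol-treated tumor 1 was just below the lowest EtOH-treated tumor and the others were clearly below it, but the difference was under the fold threshold and did not pass (log2 fold change -0.68 ± 0.20 (SE), adjusted p = 0.0951; without tumor 1, -0.86 ± 0.17, adjusted p = 0.0186).

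Of the 4 monocyte genes, 3 had a negative log2 fold change and none passed with all tumors in edgeR's test (2 at an unadjusted p under 0.05, and 0 called by DESeq2 or limma-voom), while Cx3cr1 and Ccr2 passed without calcipotriol-treated tumor 1. Cx3cr1 encodes the receptor for fractalkine on patrolling monocytes and many tissue macrophages (chr9:119901616-120069879, minus strand). It had 46.1, 48.1, 85.7 and 87.95 CPM with EtOH and 62.9, 1.69, 4.999 and 3.603 CPM with calcipotriol. Calcipotriol-treated tumors 5, 6 and 7 were all at or under 5 CPM, and calcipotriol-treated tumor 1 was in the middle of the EtOH range, at 18.3 times the mean of the other 3. With all tumors the log2 fold change was -1.87 ± 0.92 (SE) and did not pass (adjusted p = 0.314, edgeR), and without tumor 1 it was -4.29 ± 0.41, adjusted p = 0.000549, a 19.5-fold lower level.

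Ccr2, the receptor for the monocyte attractants encoded by Ccl2 and Ccl7, had 23.2, 27.9, 81.1 and 75.1 CPM with EtOH and 43.1, 5.66, 9.95 and 9.28 CPM with calcipotriol. EtOH-treated tumors 3 and 4 were more than 2 times as high as EtOH-treated tumors 1 and 2, calcipotriol-treated tumor 1 lay between these pairs, and calcipotriol-treated tumors 5, 6 and 7 were below all of them (log2 fold change -1.60 ± 0.64 (SE), adjusted p = 0.213; without tumor 1, -2.64 ± 0.48, adjusted p = 0.0115). Ly6c2, the surface marker gene of inflammatory monocytes, ranged from 0.681 to 2.71 CPM with EtOH and from 1.37 to 9.09 CPM with calcipotriol (log2 fold change 1.77 ± 0.63 (SE), adjusted p = 0.17). The ranges overlapped at low counts, and 12.6% of the 50-base windows of Ly6c2 also occur in Ly6c1. Plac8, a gene of monocytes and granulocytes, ranged from 5.55 to 19.1 CPM with EtOH and from 2.60 to 11.8 CPM with calcipotriol and passed in neither fit.

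To set these genes against the macrophage marker, the log2 ratio of each to Adgre1 was taken within each tumor. Cx3cr1 over Adgre1 was -0.41, -0.65, 0.10 and 0.20 with EtOH, 0.28 in calcipotriol-treated tumor 1 and -3.86, -2.30 and -2.68 in calcipotriol-treated tumors 5, 6 and 7. Ccr2 over Adgre1 was -1.40, -1.44, 0.02 and -0.03 with EtOH, -0.27 in calcipotriol-treated tumor 1 and -2.12, -1.31 and -1.32 in the others. Gpnmb over Adgre1 was -2.14, -2.69, -3.05 and -3.21 with EtOH, -2.39 in calcipotriol-treated tumor 1 and 1.63, 0.88 and 1.19 in the others. Cx3cr1 was thus lower than Adgre1 in calcipotriol-treated tumors 5, 6 and 7 by more than in any other tumor and Gpnmb was higher, whereas the Ccr2 ratios of tumors 6 and 7 were inside the EtOH range. Cd68 over Adgre1 was -0.08, -0.08, 0.07 and -0.08 with EtOH and 0.77, 1.35, 0.41 and 0.82 with calcipotriol, higher in every calcipotriol-treated tumor. Adgre1 and Cd68 thus moved apart, and ratios of the other genes to Cd68 were not taken. None of these ratios was tested.

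The phagocyte oxidase makes superoxide in the phagosome. It joins a membrane subunit encoded by Cybb to cytosolic subunits encoded by Ncf1 and Ncf4, and Slc11a1 encodes a metal transporter of the same compartment. All 4 genes had a negative log2 fold change (median -1.13), Ncf1 fell in the test, and all 4 passed without calcipotriol-treated tumor 1.

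Ncf1 (chr5:134220053-134229625, minus strand) had 68.9, 73.8, 97.5 and 107 CPM with EtOH and 58.00, 35.4, 33.5 and 30.01 CPM with calcipotriol (log2 fold change -1.15 ± 0.23 (SE), adjusted p = 0.0285). The groups did not overlap, and calcipotriol-treated tumor 1 was the highest of its group. Exons of Gtf2ird2 on the opposite strand overlap 11.1% of its exon length. Cybb had 31.4, 43.1, 31.4 and 36.96 CPM with EtOH and 39.6, 5.44, 11.2 and 9.58 CPM with calcipotriol. The other 3 calcipotriol-treated tumors were far below the EtOH range and tumor 1 was inside it (log2 fold change -1.11 ± 0.50 (SE), adjusted p = 0.269; without tumor 1, -2.03 ± 0.26, adjusted p = 0.00215).

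Ncf4 had 17.9, 24.3, 33.4 and 36.4 CPM with EtOH and 20.7, 6.94, 6.83 and 8.69 CPM with calcipotriol (log2 fold change -1.37 ± 0.38 (SE), adjusted p = 0.0831; without tumor 1, -1.90 ± 0.27, adjusted p = 0.00356). Slc11a1 had 10.1, 13.3, 17.5 and 16.4 CPM with EtOH and 13.3, 8.27, 5.96 and 5.34 CPM with calcipotriol (log2 fold change -0.80 ± 0.31 (SE), adjusted p = 0.204; without tumor 1, -1.14 ± 0.26, adjusted p = 0.0333). In both, calcipotriol-treated tumor 1 lay inside the EtOH range and the other 3 lay below it.

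The last group held inhibitory receptors and other myeloid genes, and none of its 4 members passed with all tumors in edgeR's test, although 3 had an unadjusted p under 0.05 and DESeq2 and limma-voom each called Cd300a. Cd300a, an inhibitory receptor for lipids exposed on dying cells, had 7.102, 7.06, 5.75 and 5.12 CPM with EtOH and 3.46, 1.096, 0.625 and 0.594 CPM with calcipotriol. The groups did not overlap at these low levels (log2 fold change -2.10 ± 0.56 (SE), adjusted p = 0.0774; without tumor 1, -3.01 ± 0.40, adjusted p = 0.0027). Pld4, the gene of an endolysosomal nuclease, had 61.97, 50.9, 60.2 and 57.03 CPM with EtOH and 58.4, 9.41, 12.6 and 11.7 CPM with calcipotriol. Calcipotriol-treated tumor 1 was inside the narrow EtOH range, and the other 3 were at least 4 times lower than its lowest value (log2 fold change -1.32 ± 0.51 (SE), adjusted p = 0.207; without tumor 1, -2.35 ± 0.17, adjusted p = 0.000151).

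Sirpa encodes the receptor by which the cell surface protein CD47 restrains phagocytosis. It had 77.6, 70.6, 109.6 and 127 CPM with EtOH and 101, 46.3, 46.3 and 55.9 CPM with calcipotriol, and the difference was under the fold threshold in both fits (log2 fold change -0.62 ± 0.28 (SE), adjusted p = 0.263; without tumor 1, -0.96 ± 0.21, adjusted p = 0.0274). Again tumor 1 of the calcipotriol group was inside the EtOH range and the other 3 were below it. Lst1, a small leukocyte membrane protein gene, ranged from 1.60 to 5.56 CPM with EtOH and from 0.636 to 7.27 CPM with calcipotriol (-0.03 ± 0.72 (SE), adjusted p = 0.989, edgeR).

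**Figure D4:**
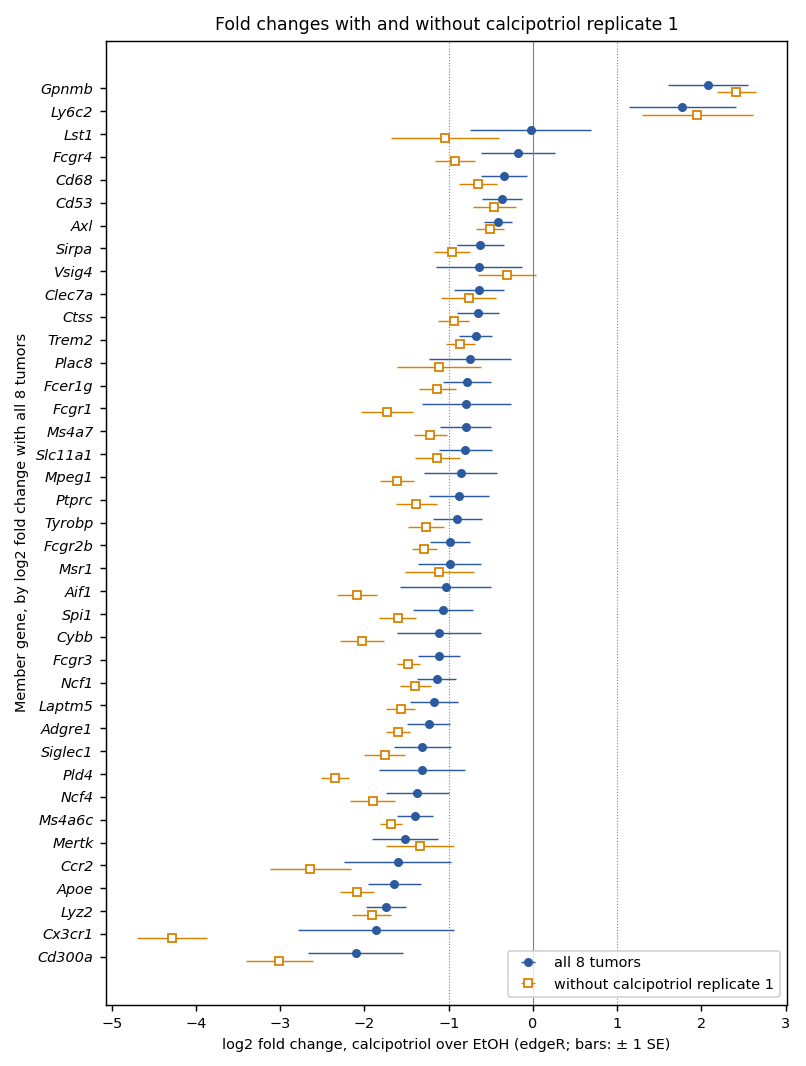
Log2 fold change (calcipotriol over EtOH, edgeR, bars ± 1 SE) of each tested member with all 8 tumors (blue) and without calcipotriol-treated tumor 1 (open orange squares), with dotted lines at the fold threshold. Most orange squares lie to the left of the blue points, by the most for Cx3cr1, and Mertk, Vsig4, Gpnmb and Ly6c2 are exceptions.

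The region just before the start of a gene holds binding sites for transcription factors, and PU.1 is known to bind the purine core GAGGAA in myeloid promoters. RefSeq windows (GRCm38.p6) of 300 bases, from 250 before to 50 after a gene's start, were at hand for 33 of the 41 members, as 41 windows in all, and GAGGAA or its reverse complement TTCCTC was searched on both strands. It was found in 26 of the 41 member windows (63.4%) and in 9289 of 32851 windows of all genes (28.3%). By gene, 22 of the 33 members held it in at least 1 window, and some windows of the same gene overlap. The windows of Cybb, Fcgr3 and Cd300a are shown as members with the motif, and those of Lyz2 and Gpnmb, which were the members with the lowest adjusted p and the only one called higher, as members without it. Sequences run 5′ to 3′ on the strand of the gene, and capitals mark the motif in either orientation.
Cybb, chrX:9469275-9469574, minus strand: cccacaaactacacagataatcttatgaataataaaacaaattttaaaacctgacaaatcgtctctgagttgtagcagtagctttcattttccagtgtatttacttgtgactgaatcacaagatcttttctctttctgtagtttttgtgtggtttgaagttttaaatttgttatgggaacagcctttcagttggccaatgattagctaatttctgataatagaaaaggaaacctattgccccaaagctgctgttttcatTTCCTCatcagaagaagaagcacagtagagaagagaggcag
Fcgr3, chr1:171059345-171059644, minus strand: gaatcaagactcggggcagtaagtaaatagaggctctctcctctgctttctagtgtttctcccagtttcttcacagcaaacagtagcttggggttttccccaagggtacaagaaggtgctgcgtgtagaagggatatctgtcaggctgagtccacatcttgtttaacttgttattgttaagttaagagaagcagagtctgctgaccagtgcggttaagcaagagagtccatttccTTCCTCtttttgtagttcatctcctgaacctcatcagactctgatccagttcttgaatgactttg
Cd300a, chr11:114889791-114890090, plus strand: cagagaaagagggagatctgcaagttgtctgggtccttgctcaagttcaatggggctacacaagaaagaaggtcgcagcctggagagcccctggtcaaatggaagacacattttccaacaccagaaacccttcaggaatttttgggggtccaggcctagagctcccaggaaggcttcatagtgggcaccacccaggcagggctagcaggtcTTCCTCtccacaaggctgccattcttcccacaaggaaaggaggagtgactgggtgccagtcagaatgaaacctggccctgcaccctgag
Lyz2, chr10:117282223-117282522, minus strand: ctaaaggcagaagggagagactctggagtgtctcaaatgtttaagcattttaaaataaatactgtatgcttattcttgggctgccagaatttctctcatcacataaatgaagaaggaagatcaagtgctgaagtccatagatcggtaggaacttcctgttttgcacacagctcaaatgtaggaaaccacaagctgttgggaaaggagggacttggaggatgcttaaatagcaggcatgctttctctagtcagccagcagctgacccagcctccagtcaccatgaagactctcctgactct
Gpnmb, chr6:49036268-49036567, plus strand: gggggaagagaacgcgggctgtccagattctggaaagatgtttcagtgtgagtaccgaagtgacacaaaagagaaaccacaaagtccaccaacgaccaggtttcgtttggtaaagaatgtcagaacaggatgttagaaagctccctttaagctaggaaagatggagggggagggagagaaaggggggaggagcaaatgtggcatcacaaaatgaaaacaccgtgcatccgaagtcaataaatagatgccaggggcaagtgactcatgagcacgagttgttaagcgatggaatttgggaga

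A match describes the letters only and is not a site shown to be bound, and its absence says nothing of PU.1. Members with the motif were found among those that passed with all tumors (Fcgr3 and Apoe) and among those that passed only without calcipotriol-treated tumor 1 (Cybb, Cd300a, Pld4, Aif1 and others), and members without it were found in both sets too (Lyz2, Ms4a6c, Ncf1, Gpnmb and Cx3cr1). Whether motif and fold change go together was not tested.

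Genes that act with the members were taken from 6 further lists of 44 genes, all of which were tested. Of these 12 passed an adjusted p under 0.05 with all tumors, 9 lower and 3 higher, and 20 did so without calcipotriol-treated tumor 1. For these lists and the marker lists below, a gene is said to fall or rise on the adjusted p alone, with no fold threshold. The share of all genes past that rule is not given here, so these counts have no background beside them. Among the 8 ligands of the member receptors none passed in either fit of edgeR's test. With all tumors 1 had an unadjusted p under 0.05 (18.4% of all genes tested), DESeq2 passed 1 and limma-voom 0. Ccl2 had 10.5, 5.99, 43.9 and 55.1 CPM with EtOH and 43.8, 64.3, 45.2 and 31.5 CPM with calcipotriol (log2 fold change 0.68 ± 0.58 (SE), adjusted p = 0.581), so the tumors with the lowest Ccr2 had Ccl2 inside or above the EtOH range. The CX3CR1 ligand gene Cx3cl1 had 70.8, 55.8, 47.03 and 49.1 CPM with EtOH and 111, 43.6, 43.6 and 54.98 CPM with calcipotriol (log2 fold change 0.19 ± 0.29 (SE), adjusted p = 0.785). Its highest level was in calcipotriol-treated tumor 1, which also kept the highest Cx3cr1 of its group.

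Gas6 encodes a ligand of the receptor kinases MERTK and AXL, Pros1 encodes a ligand of MERTK, and Cd47 encodes the partner of SIRPA. Gas6 had 40.2, 41.7, 72.5 and 76.6 CPM with EtOH and 55.2, 27.00, 41.4 and 38.1 CPM with calcipotriol (-0.51 ± 0.27 (SE), adjusted p = 0.336). Pros1 had 94.6, 109, 78.99 and 75.7 CPM with EtOH and 104, 79.6, 116 and 125 CPM with calcipotriol (0.25 ± 0.17 (SE), adjusted p = 0.481). Both overlapped between the groups. Cd47 had 163, 178, 170.4 and 187 CPM with EtOH and 211, 226, 207 and 226 CPM with calcipotriol, with every calcipotriol-treated tumor higher but by little, and it did not pass (log2 fold change 0.32 ± 0.11 (SE), adjusted p = 0.152).

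**Figure D5:**
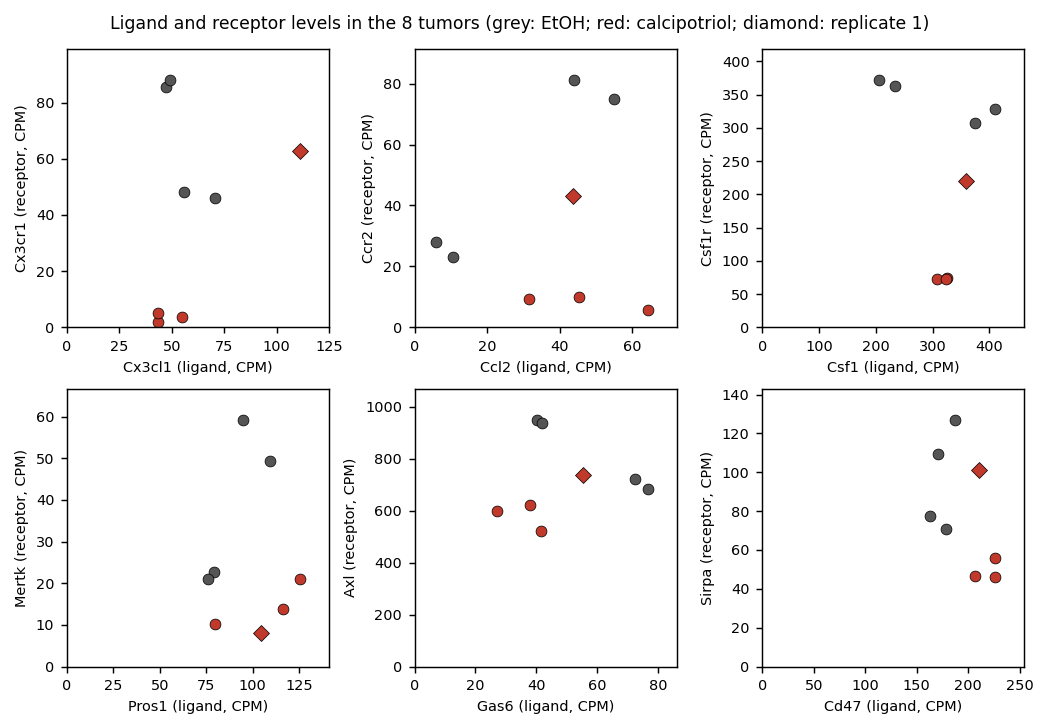
Level of 6 macrophage receptors (vertical axes, CPM) against a known ligand of each (horizontal axes, CPM) in the 8 tumors, with grey for EtOH, red for calcipotriol and a diamond for calcipotriol-treated tumor 1. For all 6 receptors the 3 red circles lie below every grey point, narrowly for Mertk. The ligand levels of these tumors are inside or near the EtOH range for Cx3cl1, Ccl2 and Csf1. They are inside or above it for Pros1, inside or below it for Gas6 and above it for Cd47.

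Growth factor receptors of macrophages were lower. Csf1r, the receptor on which macrophage survival depends, had 363, 372, 328 and 308 CPM with EtOH and 219.8, 74.2, 72.4 and 72.2 CPM with calcipotriol (log2 fold change -1.64 ± 0.35 (SE), adjusted p = 0.0374). Csf2rb, the shared chain of the receptors for GM-CSF and related cytokines, had 39.3, 42.5, 46.01 and 37.3 CPM with EtOH and 23.2, 13.3, 13.8 and 14.4 CPM with calcipotriol (log2 fold change -1.35 ± 0.20 (SE), adjusted p = 0.009). For both, the groups did not overlap and calcipotriol-treated tumor 1 was the highest of its group. The other 5 genes of this list, among them the ligand genes Csf1 and Il34, did not pass with all tumors.

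Partners of the oxidase and of the ITAM adaptors were lower in part. Among the oxidase partners the small GTPase gene Rac2 (-1.02 ± 0.22 (SE), adjusted p = 0.0365) fell in edgeR's test. Of the 8 signaling enzymes 3 fell by the adjusted p, the kinase gene Lyn (-0.97 ± 0.18 (SE), adjusted p = 0.021), the phospholipase gene Plcg2 (-0.84 ± 0.19 (SE), adjusted p = 0.0444) and the phosphatase gene Inpp5d (-1.41 ± 0.32 (SE), adjusted p = 0.0445). Only Inpp5d among them also passed the fold threshold. Of 8 myeloid transcription factor genes 1 fell by the adjusted p, Irf8 (-0.81 ± 0.17 (SE), adjusted p = 0.0333), a difference under the fold threshold. All 8 signaling enzymes had a negative log2 fold change, and 5 of the 8 transcription factor genes had one.

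Genes of alternative activation and of resident macrophages went both ways, with 1 of 10 falling and 3 rising. The scavenger receptor gene Stab1 had 216, 183, 275 and 256 CPM with EtOH and 117, 56.96, 92.2 and 79.95 CPM with calcipotriol (log2 fold change -1.43 ± 0.22 (SE), adjusted p = 0.0107). The haptoglobin-hemoglobin receptor gene Cd163 had 20.8, 21.6, 40.3 and 39.4 CPM with EtOH and 51.7, 136, 123 and 137 CPM with calcipotriol (log2 fold change 1.87 ± 0.33 (SE), adjusted p = 0.0192). Every calcipotriol-treated tumor was lower than every EtOH-treated tumor for Stab1 and higher for Cd163, with calcipotriol-treated tumor 1 nearest to the EtOH range in both.

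Chil3, which encodes a chitinase-like protein induced by interleukin-4, had 2.29, 4.82, 23.9 and 25.2 CPM with EtOH and 57.9, 1940.0, 283 and 279 CPM with calcipotriol (log2 fold change 5.50 ± 1.16 (SE), adjusted p = 0.0353). Retnla, another gene induced by interleukin-4, had 0.243, 0, 1.26 and 1.06 CPM with EtOH and 5.999, 9.82, 22.2 and 18.8 CPM with calcipotriol (log2 fold change 4.43 ± 0.82 (SE), adjusted p = 0.0215). Both were higher in every calcipotriol-treated tumor, by very different amounts among these tumors. In calcipotriol-treated tumors 5, 6 and 7 the lower levels of most members were therefore accompanied by higher levels of Cd163, Chil3 and Retnla. In calcipotriol-treated tumor 1 the same genes were above the EtOH range too, but the median difference of the members was only -0.09.

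Markers of other cells also differed between the groups, and their part in the member differences was not tested. Summed over each list, erythroid markers were 3457 to 5836 CPM with EtOH and 434 to 820 CPM with calcipotriol (5 of 6 genes fell), and endothelial markers were 139.6 to 312 CPM with EtOH and 55.4 to 108 CPM with calcipotriol (3 of 6 fell). Epithelial markers were 1005 to 1322 CPM with EtOH and 590.4 to 888.5 CPM with calcipotriol (1 of 4 tested fell, Krt18, by less than the fold threshold). Most of each sum came from Krt8 and Krt18, so it does not stand for the whole list. Of the 4 tested, 2 had a negative log2 fold change (Krt8 and Krt18) and 2 a positive one. The positive ones were Epcam (2.62 ± 1.33 (SE), adjusted p = 0.328, edgeR) and Cdh1 (0.45 ± 0.44 (SE), adjusted p = 0.634, edgeR). Fibroblast markers were 2734 to 3153 CPM with EtOH and 2500 to 4330.0 CPM with calcipotriol. In the 9 marker lists other than the erythroid, endothelial and epithelial ones no gene passed edgeR's test with all tumors. Of their 36 tested genes 8 had an unadjusted p under 0.05, against 18.4% of all genes tested. DESeq2 passed 3 and limma-voom 0. Neutrophil markers summed to 35.6 to 108 CPM with EtOH and 42.6 to 158 CPM with calcipotriol, dendritic cell markers to 5.74 to 12.4 and 5.71 to 10.7 CPM, and mast cell markers to 16.9 to 45.1 and 15.3 to 38.7 CPM. T cell markers (0.441 to 2.82 and 2.97 to 13.3 CPM), NK cell markers (1.27 to 2.09 and 2.83 to 8.94 CPM) and B and plasma cell markers (1.17 to 3.84 and 0.685 to 5.52 CPM) were low, and each was highest in calcipotriol-treated tumor 1. Skeletal muscle markers summed to 1.22 to 45.6 CPM with EtOH and 1.07 to 6.49 CPM with calcipotriol, and eosinophil markers to at most 1.09 CPM in any tumor, with Prg2 and Ear1 at 0 in all 8.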

How the data were processed

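RNA of 8 whole tumors was sequenced by the study from NEBNext Ultra libraries. The authors deposited a table of estimated counts (expected counts per gene, not scaled between tumors), and the submitters' processing notes name STAR 2.5.3, RSEM 1.3.1, DESeq2 1.24.0 and GRCm38. The annotation and the use of strand in counting are not given in the sources used here. The table has 0 columns of other samples.

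Counts were rounded to whole numbers. Identifiers were matched to GENCODE M21 (GRCm38), which named 52081 of 55414. edgeR 4.0.16 under R 4.3.3 then compared the groups over all genes (genes kept by filterByExpr, TMM scaling, two-sided quasi-likelihood F test from glmQLFTest, Benjamini-Hochberg adjustment). Calls needed an adjusted p below 0.05 together with a log2 fold change of 1 or more in size. Each SE was derived from the test, as the size of the unshrunken log2 coefficient divided by the square root of the F statistic. The log2 fold changes beside the SEs are the shrunken ones that edgeR reports. The common biological coefficient of variation was 0.347. CPM used TMM library sizes, and log2 CPM a prior count of 2. Scripts were tested on simulated data. Alternatives were DESeq2 1.42.0 (test and size factors), limma-voom (limma 3.58.1), the table unfiltered for low counts, genes with at least 10 counts in all tumors, and each tumor left out in turn. Fits without calcipotriol-treated tumor 1 for the related lists and the Adgre1 permutation test were added after that tumor was seen to stand apart.

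The members, lists, tests and the rule for named genes were chosen with earlier results of these data known. The rule names every member, gives each tumor's value for members past a threshold with all tumors or without 1 tumor, for members whose groups do not overlap and for the 2 highest of each role group, and names related genes past the adjusted p and 5 ligands. A related gene that the rule would name is not reported here. The tumors are taken as separate animals, 4 per group, as the study's methods state. Intervals for low counts cover counting error only.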

Additional observations from a re-analysis of the deposited data

Results flagged for a closer look

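In 4 of the 78 groups of 4 tumors that the 39 tested members form, 1 tumor lay far from the other 3 by Dixon's test, where chance gives about 1 group in 20, or 3.9. In 3 of the 4 the tumor was calcipotriol-treated tumor 1, each time above the others of its group.

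Adgre1 stood at 51.9 CPM in calcipotriol-treated tumor 1, and at 23.1 to 24.6 CPM in the other 3. Ms4a7 stood at 35.9 CPM in the same tumor, against 14.6 to 16.2 CPM. Pld4 stood at 58.4 CPM there, against 9.41 to 12.6 CPM. The calls for these 3 genes with and without that tumor are given above. Ctss was low in EtOH-treated tumor 1, at 631 CPM against 727 to 735 CPM in the other EtOH-treated tumors.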

How the results depend on the processing

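The 7 members past both thresholds became 13 with the DESeq2 test and 12 with no filter on low counts, and 2 to 25 when each tumor was left out in turn. Members past the adjusted p alone numbered 7, 16 with DESeq2, 13 with no filter and 2 to 29 without 1 tumor. The share of all genes past that rule is not given here, so these member counts have no background beside them. By the different rule of both thresholds, all genes called numbered 292, 640, 458 and 110 to 642 in the same settings. Members whose groups do not overlap numbered 13, and 13 to 31 without 1 tumor. In each of these ranges the highest value is the one without calcipotriol-treated tumor 1. DESeq2 size factors, limma-voom and a minimum of 10 counts gave 7, 10 and 8 members past both thresholds. All 7 members stayed called under each of these settings except Gpnmb in limma-voom. Without calcipotriol-treated tumor 1 the related genes past the adjusted p were 20 in place of 12, and Adgre1 (-1.60 in place of -1.32 log2 CPM) could not reach 0.05 in the permutation test. With no filter the median log2 fold change of all genes was 0.11.

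The median of the members stayed between -0.80 and -1.34. Lst1 ranged from -1.05 without calcipotriol-treated tumor 1 to 0.48 without EtOH-treated tumor 4, and was also positive without calcipotriol-treated tumors 5, 6 or 7 (0.23, 0.043 and 0.31). Fcgr4 ranged from -0.93 without calcipotriol-treated tumor 1 to 0.066 without tumor 6 of that group, and was 0.044 without tumor 7. None of the positive values passed the threshold. Apoe, Ncf1, Adgre1, Fcgr3 and Gpnmb each lost the call when any of several single tumors was left out. The causes were not tested. No paired analysis was possible because the groups share only replicate number 1.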
